A study of Mus musculus with 16 samples.

Results

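Newly made RNA was set against total RNA in wild type (WT) mouse embryonic stem cells, gene by gene, to describe which transcripts made up a larger share of the RNA made within 15 min than of the RNA present in the cell. The comparison used 4 of the 16 libraries of the series, chosen by their labels. The newly made fraction (4sU RNA) had 2 libraries, from plain WT cells and from WT cells that overexpress Tir1 and BirA. The total RNA fraction had 2 libraries, from the same 2 lines. Tir1 is a plant F-box protein that recruits degron-tagged proteins to a ubiquitin ligase, and BirA is a bacterial biotin ligase. All lines were E14 cells in serum medium with the inhibitors CHIR99021 and PD0325901 and with leukaemia inhibitory factor, and all of them, WT included, received auxin (IAA) for 24 h. The nucleoside 4-thiouridine (4sU) was in the medium for 15 min before collection. RNA that had taken it up was biotinylated and captured on streptavidin beads after the RNA had been fragmented, and it was not depleted of ribosomal RNA. The total RNA libraries were depleted of ribosomal RNA. Each fraction therefore had 1 library per line, and the p-values below measure the spread between the lines and no other replication. The 4sU libraries held 15852542 and 14780983 mouse gene counts over 23186 and 22422 genes with a count. The total RNA libraries held 4903998 and 6378707 mouse gene counts over 19247 and 19635 genes. Embryonic stem cell markers were present in both fractions: 9 of 10 had a row, and these summed to 2719.5 and 2901 CPM (counts scaled to a library total of 1000000) in 4sU RNA, against 4711 and 4293 CPM in total RNA. The other marker, Sox2, was not analysed here. Lists for primitive endoderm, mesoderm, trophoblast, fibroblasts and neural cells each summed to between 1.097 and 30.3 CPM. Of the 4 neural markers only 1, Pax6, had a row.

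The level of an RNA is set by how fast it is made and how fast it is lost. An RNA with a long life accumulates, so that its share of total RNA exceeds its share of the RNA made in a short labelling pulse, while a short-lived RNA is closer in share to its synthesis. The ratio of new to total RNA is therefore used as a proxy for turnover. It also depends on how far a transcript had been made, spliced and processed at the end of the pulse, on how many uridines it has to carry the label, and on how its reads were counted. Below, the log2 ratio of a gene is its CPM in 4sU RNA over its CPM in total RNA, given as the fitted value ± its standard error (n = 2 libraries in each fraction), and the 2 values of a fraction are those of plain WT and of WT with Tir1/BirA. CPM are shares of each library's mouse gene counts. No spike-in scaling was used between fractions, so a ratio compares shares and not amounts of RNA per cell. In bulk samples, fewer cells in a state and less RNA per cell cannot be told apart.

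Small structural RNAs, replication-dependent histones, ribosomal proteins and pseudogenes took a smaller share of 4sU RNA than of total RNA, while mitochondrial transfer RNAs, long non-coding genes and antisense genes took a larger one. Nuclear protein-coding genes held 86.0% and 87.4% of counts in 4sU RNA, against 88.5% and 90.7% in total RNA. Rn7sk (ENSMUSG00000065037, chr9:78175303-78175633 in mm10), the 7SK RNA that holds the elongation factor P-TEFb in an inactive complex, held 0.0177% and 0.0224% of counts in 4sU RNA, against 3.27% and 3.54% in total RNA, a share 169.7-fold lower in 4sU RNA. Other annotated small nuclear, nucleolar, Cajal body and miscellaneous RNAs held 0.00365% and 0.00443% of counts in 4sU RNA, against 0.0248% and 0.0219% in total RNA. Replication-dependent histone genes held 0.0859% and 0.109% of counts in 4sU RNA, against 1.43% and 1.73% in total RNA, which is 16.2-fold lower. Cytosolic ribosomal protein genes held 0.555% and 0.632% of counts in 4sU RNA, against 2.32% and 3.00% in total RNA. Processed pseudogenes, intronless copies of messenger RNAs that were inserted back into the genome, held 0.0554% and 0.0522% of counts in 4sU RNA, against 0.264% and 0.300% in total RNA. In each of the classes with a smaller share both 4sU libraries lay below both total RNA libraries.

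The classes with the larger share of 4sU RNA were non-coding. Long intergenic non-coding (lincRNA) genes other than Gm26917 and Gm42418 held 0.930% and 0.937% of counts in 4sU RNA, against 0.679% and 0.637% in total RNA. Antisense genes held 0.370% and 0.361% of counts in 4sU RNA, against 0.225% and 0.204% in total RNA, and processed transcripts held 0.624% and 0.645% of counts in 4sU RNA, against 0.432% and 0.473% in total RNA. The mitochondrially encoded transfer RNAs were rare in both fractions, at 0.00541% and 0.00928% of counts in 4sU RNA, against 0.000326% and 0.000314% in total RNA, which is 23.0-fold higher in 4sU RNA. The 7 mitochondrially encoded protein genes that had a row overlapped between the fractions, with 0.490% and 0.800% of counts in 4sU RNA, against 0.528% and 0.602% in total RNA. With 2 libraries in each fraction an exact two-sided permutation test cannot give a p below 0.333, which is its value for each of these classes but the last, where it is 1. The WT 4sU libraries of the other projects, from cells of the same description, gave like shares of Rn7sk (0.0142% to 0.0289%), of replication-dependent histones (0.0642% to 0.104%) and of ribosomal protein genes (0.438% to 0.586%).

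A pair of neighbouring lincRNA entries on chromosome 17, Gm26917 (chr17:39843013-39846341) and Gm42418 (chr17:39846958-39848788), together held 11.3% and 9.56% of counts in 4sU RNA, against 5.92% and 3.41% in total RNA. RefSeq lists Gm42418 as a synonym of the ribosomal RNA pseudogene Rn18s-rs5, at an overlapping place in the same genome build. Gm42418 had 14739.9 and 13234 CPM in 4sU RNA, against 3035 and 3549 CPM in total RNA. Since only the total RNA was depleted of ribosomal RNA, that step and the fraction cannot be told apart for this locus. The share it takes lowers every other share of its library, and scaling to nuclear protein-coding counts alone left all the class differences in the same direction.

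**Figure D1:**
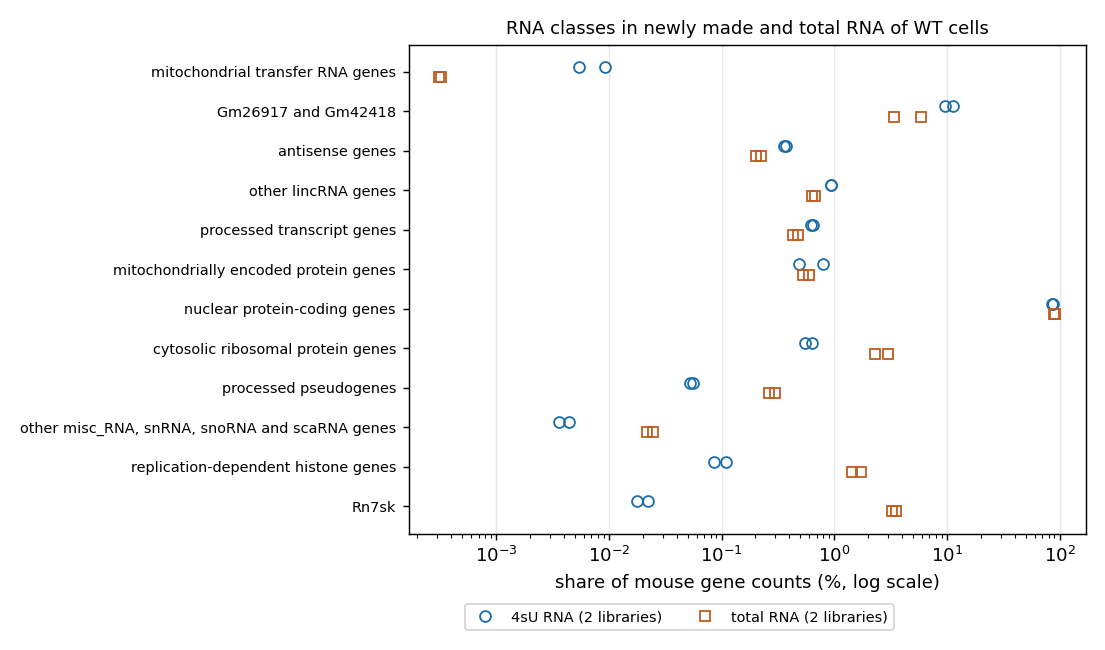
Share of mouse gene counts held by each RNA class in the 2 4sU RNA libraries and the 2 total RNA libraries, in percent on a log axis, 1 point per library. The 4sU points of Rn7sk and of the replication-dependent histones lie far below their total RNA points, those of the mitochondrial transfer RNAs lie far above theirs, and those of the antisense and other lincRNA genes lie above theirs by less.

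Across the transcriptome, genes with lower and higher ratios were both common. Of 14494 genes that passed the filter on low counts, 4007 (27.6%) were higher in 4sU RNA and 5099 (35.2%) were lower at an adjusted p under 0.05, so that 62.8% were called in either direction. These shares are the background against which counts of gene groups are read below. The adjusted p-values are Benjamini-Hochberg values from edgeR's quasi-likelihood test over all genes tested. Where 1 library was left out as a check, its fraction had 1 library, which was then assumed to vary like the libraries of the other fraction. The median log2 ratio was -0.05, with 5% of genes below -2.99 and 5% above 1.94. The low side reached further: 1908 genes were called and at least 4-fold lower, and 608 were called and at least 4-fold higher. Scaling by TMM, which assumes that most genes do not differ, moved the log2 ratios up by a median of 0.10 and gave 4412 higher and 4776 lower genes. A list median within about that distance of 0 thus takes its sign from the scaling. The lines gave like ratios. Over 11693 genes with at least 10 counts in every library, the log2 ratios of the lines had a Pearson correlation of 0.961 across genes, which share their libraries, and 331 genes (2.83%) differed by more than 1 between lines. Filip1l, picked after its values were seen as a gene with a wide difference, had 4.48 and 4.67 CPM in 4sU RNA, against 173 and 20.7 CPM in total RNA. No gene whose ratio had opposite signs in the lines (923 genes) was called.

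The feature that moved most with the ratio was the genomic span of the gene, from its start to its end with introns included. Among protein-coding genes the Spearman correlation of the log2 ratio with span was 0.72 over 12742 genes (0.70 in plain WT and 0.72 in WT with Tir1/BirA). In the decile of genes with the shortest span, 0.123 to 5.28 kb, the median log2 ratio was -2.31, and 53 of 1275 genes were higher and 1027 lower. In decile 5, up to 27.2 kb, the median was -0.45. In the decile with the longest span, 146 to 4435 kb, it was 1.41, with 912 genes higher and 14 lower. The levels behind this were measured per kilobase of the median annotated transcript, so that genes of different length can be compared. In the shortest decile the median level was 3.57 and 3.46 CPM per kb in 4sU RNA, against 17.2 and 18.1 in total RNA. In decile 9 it was 40.4 and 38.2 CPM per kb in 4sU RNA, against 21.6 and 19.0 in total RNA. In the longest decile it was 20.1 and 17.7 CPM per kb in 4sU RNA, against 8.64 and 6.43 in total RNA. Between deciles 1 and 9 the levels thus differed mainly in 4sU RNA, while in the longest decile both levels were lower than in decile 9, and the total level the more so. Whether reads in introns were counted is not given in the sources used here, so intronic RNA and turnover cannot be told apart in the ratio of a long gene.

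Other features of the annotated transcripts followed the ratio less closely. The correlation was 0.66 with the intronic share of the gene, 0.25 with the length of the 3′ untranslated region (UTR) and -0.30 with the share of G or C at the last position of codons. For this reason a span-matched ratio is also given below: the log2 ratio minus the median of the protein-coding genes in the same of 20 bins of span. This measure was added after the dependence on span had been seen. Against the span-matched ratio the correlations were 0.03 for the intronic share, 0.07 for 3′ UTR length, -0.15 for codon G or C, 0.18 for the A and T share of the 3′ UTR and -0.24 for the number of exons.

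Genes with no intron in any annotated transcript have no intronic reads to count. There were 179 such protein-coding genes besides the replication-dependent histones, of which 4 were higher in 4sU RNA and 130 lower, with a median log2 ratio of -2.03. Among genes of up to 5 kb, the median was -2.06 for 167 intronless genes and -2.33 for 981 genes with introns, so the low ratio of short genes was found with and without introns. Within the intronless genes the median also moved with the number of uridines in the transcript, which carry the label. It was -2.31 in the 57 genes with the fewest uridines and -1.34 in the 57 with the most. These groups also differed in median span, at 1.39 and 4.15 kb, and their span-matched medians were 0.35 and 0.66. Uridine number and span thus cannot be told apart here, and the part of uridine number in the other results was not tested.

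**Figure D2:**
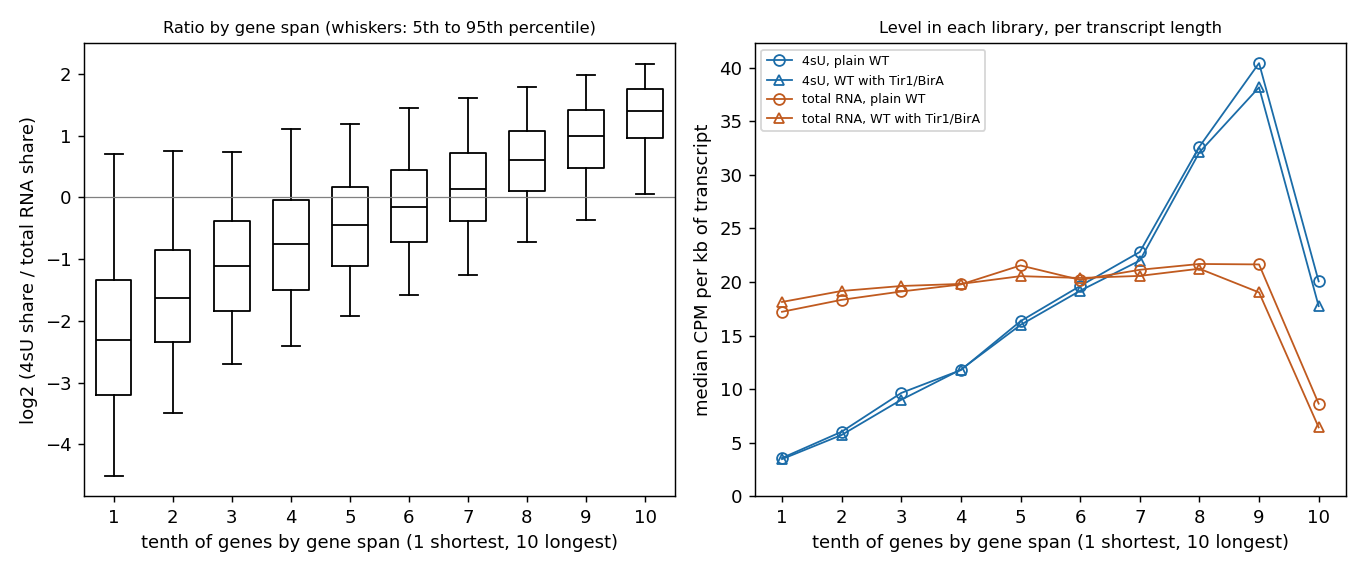
Left, log2 ratio of 4sU RNA over total RNA for protein-coding genes in deciles of genomic span (boxes, quartiles and median; whiskers, percentiles 5 to 95); right, the median CPM per kb of transcript in each of the 4 libraries. The median ratio goes up at every step, and is -2.31 in the shortest decile and 1.41 in the longest, while the total RNA level stays between 17.2 and 21.7 CPM per kb over deciles 1 to 9 and is 8.64 and 6.43 in decile 10.

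The ribosomal proteins listed here, whose messenger RNAs are abundant and long-lived, gave ratios from -4.38 to 2.70: 28 of 75 tested members were higher in 4sU RNA and 37 were lower, with a median log2 ratio of -0.31. Many of these genes have processed pseudogenes, and a read that matches several places may not be counted for any of them. How such reads were treated is not given in the sources used here. Sharing was measured in each gene's annotated transcript with the longest coding sequence. It is the percent of 50-base windows of that transcript that also occur in a transcript of another annotated gene. The sequences below are 50-base coding windows that show the extremes. They were read from GENCODE M21 transcripts on GRCm38 (mm10), at chr7:99482651-99482700 (minus strand) for Rps3, chr5:142905637-142905686 (minus strand) for Actb, chr3:130729089-130729138 (minus strand) for Rpl34 and chr6:125162898-125162947 (minus strand) for Gapdh. Those of Rps3 and Actb occur in no other annotated gene, that of Rpl34 occurs in 6 others and that of Gapdh in 83 others.
Rps3: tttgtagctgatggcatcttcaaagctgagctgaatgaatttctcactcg
Actb: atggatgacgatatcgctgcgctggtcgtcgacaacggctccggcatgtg
Rpl34: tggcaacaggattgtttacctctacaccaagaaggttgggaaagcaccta
Gapdh: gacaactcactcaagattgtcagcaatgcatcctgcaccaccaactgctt

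Ribosomal protein genes with little shared sequence had the lowest ratios. In the 6 with up to 10% of windows shared, the median log2 ratio was -3.15, with 0 higher and 5 lower. In the 38 with 10% to 50% shared it was -1.09, with 13 higher and 21 lower. In the 31 with more than 50% shared it was 0.54, with 15 higher and 11 lower. The Spearman correlation of the ratio with the shared percent was 0.40 over 75 genes. Rpl8, a protein of the large subunit with 6.49% of windows shared, had 97.7 and 114 CPM in 4sU RNA, against 1889 and 2542 CPM in total RNA (log2 ratio -4.38 ± 0.21, adjusted p = 1.58e-05). Rps3, of the small subunit, with 2.96% shared, had 124 and 141 CPM in 4sU RNA, against 2122 and 2897 CPM in total RNA (log2 ratio -4.24 ± 0.21, adjusted p = 1.71e-05). At the other end, Rpl34 with 37.9% shared had 63.3 and 69.3 CPM in 4sU RNA, against 6.73 and 13.3 CPM in total RNA (log2 ratio 2.70 ± 0.29, adjusted p = 2.10e-04), and Rps3a1 with 71.01% shared had 60.4 and 70.2 CPM in 4sU RNA, against 15.1 and 21.01 CPM in total RNA (log2 ratio 1.85 ± 0.20, adjusted p = 2.49e-04). The 4sU levels of these 4 genes were within 60.4 to 141 CPM, while their total levels spanned 6.73 to 2897 CPM.

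Rpl9, picked after its values were seen as a gene with much shared sequence, was another with a higher share of 4sU RNA. With 93.3% of windows shared, it had 73.1 and 82.3 CPM in 4sU RNA, against 26.1 and 38.3 CPM in total RNA (log2 ratio 1.26 ± 0.20). The housekeeping genes most used as references also differed from each other in direction. Actb, cytoplasmic beta-actin, had 183 and 199 CPM in 4sU RNA, against 2636 and 2897 CPM in total RNA (log2 ratio -3.86 ± 0.16, adjusted p = 1.28e-05). Gapdh, a glycolytic enzyme with 90.4% of windows shared, had 97.1 and 106 CPM in 4sU RNA, against 52.6 and 62.2 CPM in total RNA (log2 ratio 0.82 ± 0.15, adjusted p = 0.00249), and both its 4sU libraries lay above both total RNA libraries. Over all protein-coding genes the median log2 ratio was 0.85 in the 61 genes with more than 90% of windows shared and -0.19 in the 8909 with none. Across 12660 coding genes, most of them with no shared window, the Spearman correlation of the log2 ratio with the shared percent was 0.0101, and it was 0.13 with the span-matched ratio. Much shared sequence also occurred in genes with low ratios, which are described below: Eef1a1 had 59.2% of windows shared, Tuba1b 73.8% and Hist1h3h 93.9%. Levels and ratios of genes with many copies are given here as uncertain, since the counting of their reads is not known.

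**Figure D3:**
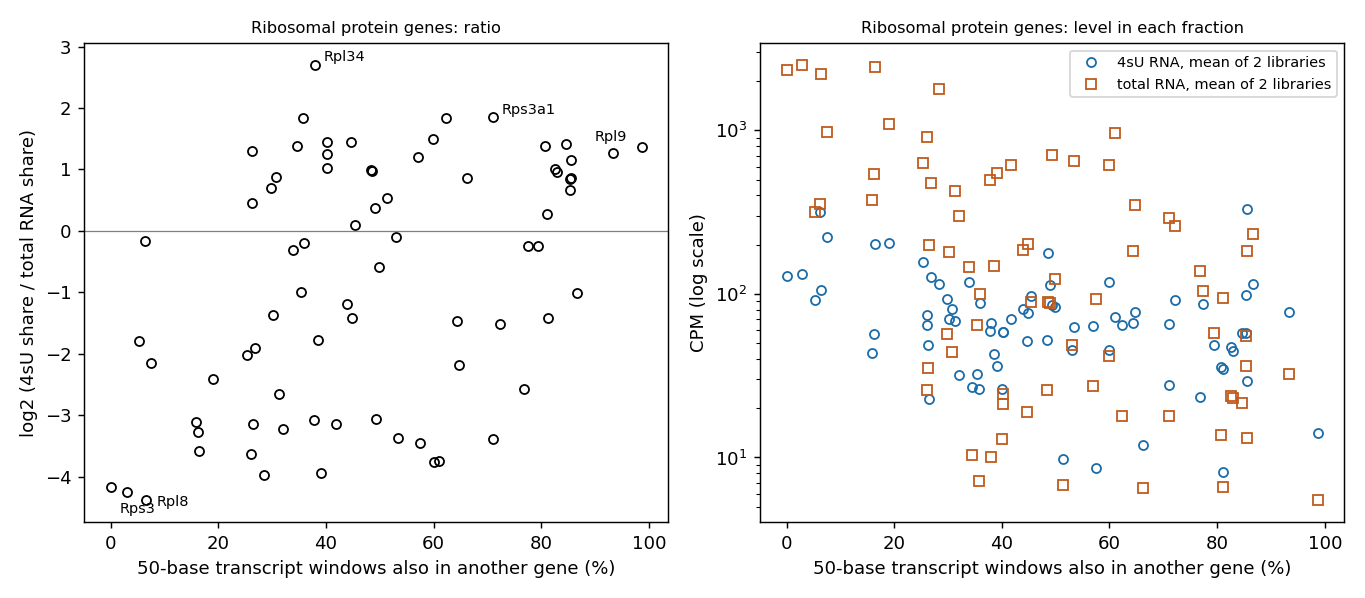
The 75 cytosolic ribosomal protein genes against the percent of their 50-base transcript windows that occur in another annotated gene, 1 point per gene; left, the log2 ratio of 4sU RNA over total RNA, right, the mean CPM of the 2 libraries of each fraction on a log axis. All genes with a ratio above 0 have more than 10% of windows shared, and the total RNA points spread over a wider range of CPM than the 4sU points.

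Replication-dependent histone genes, which supply the core and linker histones of S phase, were lower in 4sU RNA almost throughout. They have no introns as a rule, and their messenger RNAs end in a conserved stem-loop, bound by SLBP, instead of a poly(A) tail. Of 58 genes 55 were tested, 0 were higher and 54 lower, with a median log2 ratio of -4.25. Hist1h2bn had no count in 4sU RNA and 1.43 and 1.57 CPM in total RNA, so that it was at least 15.3-fold lower against a floor of 3 counts over both 4sU libraries. With that gene at its bound the median was -4.06. Hist1h2bn passed the filter on low counts only through its total RNA counts. Of the 50 genes with at least 10 counts in every library, 50 were lower, with a median log2 ratio of -4.16. The span-matched median was -1.74, with 51 of 55 genes below the median of their span, and the 8 genes with up to 10% shared windows had a median log2 ratio of -3.55. The genes are short, with a median span of 0.539 kb. Since the RNA had been fragmented before 4sU capture, their ratio and the recovery of short RNAs cannot be told apart. The stem-loops of 6 genes were read from GENCODE M21 transcripts (mm10), to show the element at both ends of the range of ratios. The stem and loop are in capitals, at chr13:23531453-23531478 (plus strand), chr13:22043633-22043658 (plus strand), chr13:23551286-23551311 (minus strand), chr9:44335235-44335260 (plus strand), chr13:23696520-23696545 (plus strand) and chr3:96238480-96238505 (minus strand) in the order given.
Hist1h4h: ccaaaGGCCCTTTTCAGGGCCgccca
Hist1h2bj: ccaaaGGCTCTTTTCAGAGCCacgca
Hist1h4f: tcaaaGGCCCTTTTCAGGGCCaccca
H2afx: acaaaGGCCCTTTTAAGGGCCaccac
Hist1h1t: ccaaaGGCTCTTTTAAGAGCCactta
Hist2h3c2: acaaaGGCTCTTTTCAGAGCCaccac

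The histone stem-loop motif was searched on the transcript strand in the first 100 bases after the stop codon. It was found in 35 of 55 tested replication-dependent histone genes (63.6%). Another 12 of them have no annotated 3′ UTR to search, and 8 have one without a match. The annotated UTRs of Hist1h2af and Hist1h2ah, among these 8, are only 1 and 2 bases long. Of the 55 genes, 24 had the full 100 bases to search, so a missing match is not in every case an absence of the motif. Among 12617 other protein-coding genes it was found in 1, H2afx, which encodes the variant phosphorylated at DNA breaks and was chosen as a member of the list of variants with the lowest ratio. The 3 histone genes above with the lowest ratios encode histones H4 and H2B. Hist1h4h had 10.0 and 11.8 CPM in 4sU RNA, against 783 and 615 CPM in total RNA (log2 ratio -6.00 ± 0.21, adjusted p = 1.28e-05). Hist1h2bj had 10.9 and 13.1 CPM in 4sU RNA, against 459 and 440.1 CPM in total RNA (log2 ratio -5.23 ± 0.17, adjusted p = 1.28e-05). Hist1h4f had 4.98 and 6.63 CPM in 4sU RNA, against 200.4 and 184 CPM in total RNA (log2 ratio -5.05 ± 0.19, adjusted p = 1.28e-05). The fractions were separated in all 3 genes by more than an order of magnitude. The highest ratios were in genes with few counts: Hist1h1t, the linker histone of the testis, had 0.883 and 0.947 CPM in 4sU RNA, against 2.24 and 2.51 CPM in total RNA (log2 ratio -1.37 ± 0.44, adjusted p = 0.0296). Hist2h3c2 had 0.946 and 1.42 CPM in 4sU RNA, against 1.63 and 1.88 CPM in total RNA (log2 ratio -0.58 ± 0.48, adjusted p = 0.323), which did not pass the test. Hist1h1t was not called without the plain WT 4sU library (adjusted p = 0.242), without the Tir1/BirA 4sU library (adjusted p = 0.180), without the plain WT total RNA library (adjusted p = 0.0643), without the Tir1/BirA total RNA library (adjusted p = 0.128) or with DESeq2 (adjusted p = 0.215).

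Replication-independent histone variants are made through the cell cycle, mostly from genes with introns and with poly(A) tails. Of these, 1 of 11 tested members was higher in 4sU RNA and 8 were lower, with a median log2 ratio of -1.06 and 0.20 after matching for span. H2afx had 37.5 and 35.2 CPM in 4sU RNA, against 689.6 and 705 CPM in total RNA (log2 ratio -4.26 ± 0.14, adjusted p = 1.28e-05), so that the only other coding gene with the motif also had the lowest ratio of its list. H1f0, a linker histone of slowly dividing cells, had 7.44 and 7.04 CPM in 4sU RNA, against 39.4 and 44.8 CPM in total RNA (log2 ratio -2.54 ± 0.18, adjusted p = 4.86e-05). At the top of the list, H3f3a, which encodes histone H3.3, had 83.5 and 105 CPM in 4sU RNA, against 33.8 and 47.2 CPM in total RNA (log2 ratio 1.21 ± 0.20, adjusted p = 0.00184), and the macroH2A gene H2afy2 had 26.8 and 30.4 CPM in 4sU RNA, against 25.1 and 30.1 CPM in total RNA and did not pass the test (adjusted p = 0.828).

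Of 11 structural RNAs listed, 5 had a row and 2, Rn7sk and Terc, were tested, both of them lower in 4sU RNA. The other genes given here are the non-coding genes with the lowest ratios under the rule for naming. Rn7sk had 177 and 224 CPM in 4sU RNA, against 32665 and 35367 CPM in total RNA (log2 ratio -7.41 ± 0.25, adjusted p = 1.28e-05). Terc, the RNA template of telomerase, had 0.252 and 0.474 CPM in 4sU RNA, against 49.3 and 55.7 CPM in total RNA (log2 ratio -7.14 ± 0.29, adjusted p = 1.28e-05). Terc passed the filter on low counts only through its total RNA counts. Scarna2, a Cajal body RNA, had 1.83 and 2.71 CPM in 4sU RNA, against 19.0 and 21.6 CPM in total RNA (log2 ratio -3.16 ± 0.29, adjusted p = 1.18e-04). Bc1, a short RNA transcribed by RNA polymerase III and known from neurons, had 0.757 and 1.01 CPM in 4sU RNA, against 33.2 and 8.94 CPM in total RNA (log2 ratio -4.54 ± 0.69, adjusted p = 0.00140). In Bc1 the total RNA libraries differed from each other more than in the other RNAs. The small RNA gene Gm22973 had 0.946 and 1.76 CPM in 4sU RNA, against 74.6 and 51.4 CPM in total RNA (log2 ratio -5.54 ± 0.34). The longer lncRNA gene D5Ertd605e had 1.58 and 1.01 CPM in 4sU RNA, against 11.2 and 10.8 CPM in total RNA (log2 ratio -3.07 ± 0.35). Apart from D5Ertd605e these are short RNAs, and the RNA had been fragmented before 4sU capture, so that the ratio and the recovery of short RNAs cannot be told apart.

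Mitochondrially encoded genes stood apart from short nuclear genes. They are transcribed as long polycistronic RNAs from both strands of the mitochondrial genome and then cut at the transfer RNAs. Only 7 of the mitochondrially encoded protein genes had a row in the counts, and mt-Atp6, mt-Co2 and mt-Co3 were among those without one. Of these 7, all of them tested, 6 were higher in 4sU RNA and 1 was lower, with a median log2 ratio of 2.52. mt-Nd6, the only protein gene of the light strand, had 384 and 546 CPM in 4sU RNA, against 3.67 and 6.43 CPM in total RNA (log2 ratio 6.49 ± 0.31, adjusted p = 1.51e-05), the highest ratio of all protein-coding genes named here. Among the complex I subunits of the heavy strand, mt-Nd2 had 670.5 and 1195 CPM in 4sU RNA, against 58.9 and 63.96 CPM in total RNA (log2 ratio 3.92 ± 0.30, adjusted p = 5.99e-05). mt-Nd5 had 866 and 1496 CPM in 4sU RNA, against 164 and 186 CPM in total RNA (log2 ratio 2.75 ± 0.27). mt-Nd4, with 62.2% of windows shared, had 448 and 752 CPM in 4sU RNA, against 101 and 108 CPM in total RNA (log2 ratio 2.52 ± 0.25). In each of these the lowest 4sU library was above the highest total RNA library. mt-Cytb, of complex III, had 926 and 1535 CPM in 4sU RNA, against 277 and 456 CPM in total RNA (log2 ratio 1.75 ± 0.32, adjusted p = 0.00311). mt-Nd1 had 1097 and 1720.0 CPM in 4sU RNA, against 756 and 881 CPM in total RNA (log2 ratio 0.78 ± 0.23, adjusted p = 0.0199). In the opposite direction, mt-Co1, the catalytic subunit of complex IV, had 506 and 756 CPM in 4sU RNA, against 3924 and 4319 CPM in total RNA (log2 ratio -2.71 ± 0.22, adjusted p = 7.81e-05), and 51.1% of its windows occur in another annotated gene. The 4sU libraries differed between lines, with the Tir1/BirA line higher for all 7 genes. mt-Nd1 was not called without the Tir1/BirA 4sU library (adjusted p = 0.167), without the plain WT total RNA library (adjusted p = 0.136) or without the Tir1/BirA total RNA library (adjusted p = 0.0778).

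Genes of core metabolism and protein homeostasis were mostly lower in 4sU RNA. Of the nuclear-encoded respiratory chain subunits, 3 of 73 tested members were higher in 4sU RNA and 63 were lower, with a median log2 ratio of -2.35 and -0.85 after matching for span. Atp5b, the catalytic beta subunit of ATP synthase, had 146 and 165 CPM in 4sU RNA, against 3086 and 3254 CPM in total RNA (log2 ratio -4.35 ± 0.16, adjusted p = 1.28e-05). Cox6a1, of complex IV, had 13.5 and 15.1 CPM in 4sU RNA, against 277 and 282 CPM in total RNA (log2 ratio -4.29 ± 0.15, adjusted p = 1.28e-05). Of mitochondrial ribosomal proteins, 6 of 74 tested members were higher in 4sU RNA and 61 were lower, with a median log2 ratio of -1.74 and -0.32 after matching for span. Mrpl34 had 1.135 and 1.35 CPM in 4sU RNA, against 29.8 and 34.2 CPM in total RNA (log2 ratio -4.67 ± 0.25, adjusted p = 1.96e-05). Mrpl28 had 6.31 and 5.14 CPM in 4sU RNA, against 135 and 109 CPM in total RNA (log2 ratio -4.41 ± 0.20), while Mrps28, which spans 122 kb, had 223 and 233 CPM in 4sU RNA, against 91.4 and 85.6 CPM in total RNA (log2 ratio 1.37 ± 0.13, adjusted p = 1.30e-04; 0.24 after matching for span). Among members with higher ratios, some had shared sequence: Atp5l, with 68.5% of windows shared, had 35.3 and 34.3 CPM in 4sU RNA, against 9.99 and 11.3 CPM in total RNA, Ndufs5, with 31.1%, had 4.73 and 3.32 CPM in 4sU RNA, against 1.02 and 1.25 CPM in total RNA, and Mrps36, with 36.2%, had 5.49 and 6.97 CPM in 4sU RNA, against 1.43 and 1.097 CPM in total RNA. Others with shared sequence had low ratios: Atp5h and Uqcrb, picked after their values were seen, with 47.9% and 43.2% of windows shared, had log2 ratios of -2.47 and -2.35. The symbol Atp5o has 2 rows in the table, with log2 ratios of -0.94 (called) and 0.87 (not called), and both are counted. Of the respiratory chain subunits, 5 were higher with TMM scaling, with DESeq2 size factors or with the cell line as a block. Of the mitochondrial ribosomal proteins, 3 were higher without the Tir1/BirA 4sU library. Ndufs5 was not called without the plain WT 4sU library (adjusted p = 0.110).

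All 8 genes of the CCT chaperonin, the ring that folds actin and tubulin, were lower in 4sU RNA, with log2 ratios from -3.30 (Cct5) to -1.96 (Cct4) and a span-matched median of -1.60. Cct5 had 78.8 and 90.3 CPM in 4sU RNA, against 694 and 976 CPM in total RNA (log2 ratio -3.30 ± 0.21, adjusted p = 3.10e-05). Cct4 had 186 and 216 CPM in 4sU RNA, against 710.4 and 853 CPM in total RNA (log2 ratio -1.96 ± 0.16, adjusted p = 7.62e-05). The other members, Tcp1, Cct3, Cct2, Cct6a, Cct8 and Cct7, had log2 ratios of -3.02, -2.60, -2.59, -2.56, -2.41 and -2.34. Of proteasome subunits, 3 of 36 tested members were higher in 4sU RNA and 27 were lower, with a median log2 ratio of -1.80 and -1.01 after matching for span. Psmb4, of the core particle, had 12.99 and 12.9 CPM in 4sU RNA, against 352 and 378 CPM in total RNA (log2 ratio -4.82 ± 0.15, adjusted p = 1.28e-05), and its neighbour in the ring Psmb6 had a log2 ratio of -4.26. Psma3, of the outer ring, was at the other end with 125 and 135 CPM in 4sU RNA, against 53.2 and 63.96 CPM in total RNA (log2 ratio 1.15 ± 0.15, adjusted p = 5.26e-04). Psmd11, of the regulatory lid, had a log2 ratio of 0.83.

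Of translation factors, 9 of 44 tested members were higher in 4sU RNA and 30 were lower, with a median log2 ratio of -1.07 and -0.52 after matching for span. The elongation factor genes Eef1a1 and Eef2 had the lowest ratios on the list: Eef1a1 had 171 and 199 CPM in 4sU RNA, against 3238 and 3724 CPM in total RNA (log2 ratio -4.24 ± 0.18, adjusted p = 1.28e-05). Eef2 had 145 and 167 CPM in 4sU RNA, against 2361 and 3134 CPM in total RNA (log2 ratio -4.14 ± 0.20, adjusted p = 1.64e-05). The initiation factor gene Eif3j1 had 89.1 and 98.6 CPM in 4sU RNA, against 13.7 and 14.1 CPM in total RNA (log2 ratio 2.75 ± 0.16, adjusted p = 2.41e-05). Eif4g3, a scaffold of cap-binding that spans 215 kb, had 141 and 168 CPM in 4sU RNA, against 43.6 and 34.5 CPM in total RNA (log2 ratio 1.99 ± 0.17, adjusted p = 9.89e-05; 0.58 after matching for span). Of aminoacyl-tRNA synthetases, 2 of 21 tested members were higher in 4sU RNA and 17 were lower, with a median log2 ratio of -1.72 and -1.59 after matching for span. Mars and Qars, which charge methionine and glutamine transfer RNAs, had log2 ratios of -3.68 and -3.63, while the mitochondrial synthetase Fars2, spanning 609 kb, had 1.72 and Rars 0.65. Rars was not called without the Tir1/BirA 4sU library (adjusted p = 0.0578). Of the synthetases, 1 was higher without the Tir1/BirA 4sU library.

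In glycolysis, 1 of 17 tested members was higher in 4sU RNA and 12 were lower, with a median log2 ratio of -1.05 and -1.03 after matching for span. Aldoa, an aldolase of this path, had 59.2 and 55.3 CPM in 4sU RNA, against 1215 and 1323 CPM in total RNA (log2 ratio -4.47 ± 0.15, adjusted p = 1.28e-05). The symbol Aldoa has a second row in the table, which is counted among the 17 and was not called, with 4.04 and 3.32 CPM in 4sU RNA, against 4.28 and 2.67 CPM in total RNA (adjusted p = 0.832). Tpi1 had 7.57 and 12.1 CPM in 4sU RNA, against 122 and 213 CPM in total RNA (log2 ratio -4.09 ± 0.35, adjusted p = 1.20e-04), and Pgam1, with 41.5% of windows shared, had 25.2 and 35.2 CPM in 4sU RNA, against 19.98 and 23.4 CPM in total RNA without passing the test (adjusted p = 0.0964). In the citric acid cycle, 1 of 18 tested members was higher in 4sU RNA and 15 were lower, with a median log2 ratio of -1.71 and -1.03 after matching for span. Its members with the lowest ratios, Mdh1 and Idh3b, had log2 ratios of -3.10 and -3.03. Suclg2, which spans 246 kb, was higher in 4sU RNA with 339 and 280.0 CPM in 4sU RNA, against 121 and 93.6 CPM in total RNA (log2 ratio 1.53 ± 0.18, adjusted p = 3.17e-04; 0.12 after matching for span). Ogdh had -0.05 and was not called (adjusted p = 0.781). In cholesterol synthesis, 1 of 24 tested members was higher in 4sU RNA and 15 were lower, with a median log2 ratio of -0.67 and -0.05 after matching for span. Tm7sf2 and Pmvk, enzymes of this path, had log2 ratios of -2.33 and -2.28. Idi1, which makes the isoprene building block, had 9.34 and 11.5 CPM in 4sU RNA, against 4.28 and 3.61 CPM in total RNA (log2 ratio 1.41 ± 0.29, adjusted p = 0.00471). Srebf2, the transcription factor that drives the path, had 95.4 and 103 CPM in 4sU RNA, against 86.1 and 70.5 CPM in total RNA (adjusted p = 0.0824), a difference that did not pass the test. Of cytoskeleton genes, 2 of 22 tested members were higher in 4sU RNA and 19 were lower, with a median log2 ratio of -2.65 and -0.79 after matching for span. Tuba1b, an alpha-tubulin, had 2.02 and 2.77 CPM in 4sU RNA, against 92.4 and 102 CPM in total RNA (log2 ratio -5.34 ± 0.21, adjusted p = 1.28e-05), with 77.3% of its span overlapped by another gene on the same strand. Krt18, a keratin, was low in both fractions with 0.126 and 0.0677 CPM in 4sU RNA, against 5.71 and 1.57 CPM in total RNA (log2 ratio -5.01 ± 0.89, adjusted p = 0.00231). Krt18 passed the filter on low counts only through its total RNA counts. Actg1, with 56.7% shared windows, and Tpm3, with 62.4%, were the 2 that were higher, with log2 ratios of 1.05 and 0.74. Pgam1 was called with the cell line as a block (adjusted p = 0.00970) or without the plain WT 4sU library (adjusted p = 0.0421). Srebf2 was called with TMM scaling (adjusted p = 0.0359), with DESeq2 size factors (adjusted p = 0.0366), with the cell line as a block (adjusted p = 0.0144) or without the plain WT total RNA library (adjusted p = 0.0146). Of the glycolytic genes, 2 were higher with the cell line as a block or without the plain WT 4sU library. Of the cholesterol synthesis genes, 2 were higher with TMM scaling, with DESeq2 size factors, with the cell line as a block or without the plain WT total RNA library.

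Genes of the cell cycle and of ribosome assembly also had low ratios. Of genes of mitosis and the spindle, 2 of 28 tested members were higher in 4sU RNA and 22 were lower, with a median log2 ratio of -1.14 and -0.28 after matching for span. Cdc20, the activator of the anaphase-promoting complex, had 26.2 and 24.2 CPM in 4sU RNA, against 343 and 327 CPM in total RNA (log2 ratio -3.73 ± 0.14, adjusted p = 1.28e-05), and the kinesin gene Kif20a had 51.4 and 44.0 CPM in 4sU RNA, against 404 and 445 CPM in total RNA (log2 ratio -3.15 ± 0.15, adjusted p = 1.58e-05). Ect2, which starts furrowing in cytokinesis, had 381 and 350.1 CPM in 4sU RNA, against 259 and 270.3 CPM in total RNA (log2 ratio 0.47 ± 0.13, adjusted p = 0.0165). Kif23 had a log2 ratio of 0.50. Of DNA replication genes, 2 of 35 tested members were higher in 4sU RNA and 28 were lower, with a median log2 ratio of -1.59 and -0.70 after matching for span. Fen1, the flap nuclease that trims Okazaki fragments, had 17.7 and 17.5 CPM in 4sU RNA, against 163 and 172 CPM in total RNA (log2 ratio -3.25 ± 0.14, adjusted p = 1.28e-05). Rpa3 had a log2 ratio of -3.02. Pola1 and Prim2, of the polymerase alpha-primase complex, span 327 and 216 kb and were higher, Pola1 with 1361 and 1368 CPM in 4sU RNA, against 447 and 454 CPM in total RNA (log2 ratio 1.60 ± 0.13, adjusted p = 7.98e-05; 0.19 after matching for span) and Prim2 with a log2 ratio of 1.25. Of ribosome biogenesis genes, 5 of 52 tested members were higher in 4sU RNA and 40 were lower, with a median log2 ratio of -1.28 and -0.63 after matching for span. Nop10, of the H/ACA ribonucleoprotein, had 5.17 and 7.58 CPM in 4sU RNA, against 60.4 and 76.8 CPM in total RNA (log2 ratio -3.43 ± 0.24, adjusted p = 4.50e-05). Polr1c, a subunit of RNA polymerases I and III, had a log2 ratio of -2.75. Fbl, the methyltransferase fibrillarin, was higher with 45.9 and 53.0 CPM in 4sU RNA, against 13.7 and 15.2 CPM in total RNA (log2 ratio 1.77 ± 0.18, adjusted p = 1.58e-04), with 70.4% of windows shared, and Ddx10 had 1.47. Ect2 was not called without the plain WT 4sU library (adjusted p = 0.184) or without the Tir1/BirA 4sU library (adjusted p = 0.0724). Kif23 was not called without the plain WT 4sU library (adjusted p = 0.146) or without the Tir1/BirA 4sU library (adjusted p = 0.0864). Of the mitosis genes, 0 were higher without the plain WT 4sU library or without the Tir1/BirA 4sU library. Of the replication genes, 4 were higher without the plain WT total RNA library.

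**Figure D4:**
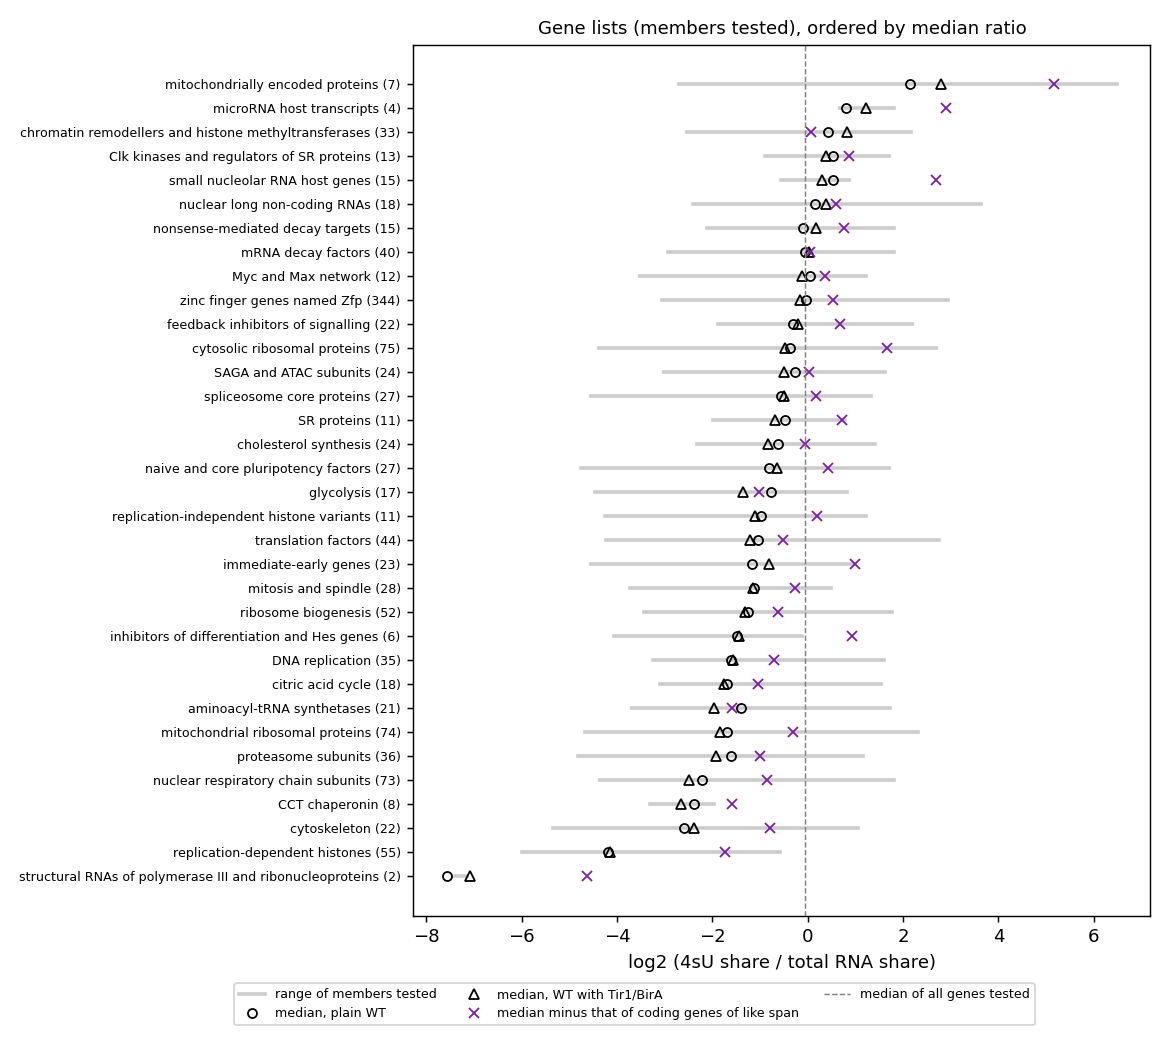
Log2 ratio of 4sU RNA over total RNA of each gene list, with the number of members tested in brackets: circles and triangles are the medians of plain WT and of WT with Tir1/BirA, crosses the median after matching for gene span, grey bars the range of the members, and the dashed line the median of all genes tested. Among lists of coding genes the replication-dependent histones lie lowest and the mitochondrially encoded proteins highest, and matching for span moves most of the lists below the line to the right.

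Of the 10 protein-coding genes with the lowest ratios under the rule for naming, 7 were replication-dependent histones, which the rule did not ask for. Besides those shown above they were Hist1h2ad (log2 ratio -5.63 ± 0.26), Hist2h3b (log2 ratio -5.25 ± 0.22), Hist1h3h (log2 ratio -5.13 ± 0.28) and Hist1h4k (log2 ratio -5.06 ± 0.28). Hist2h3b is overlapped over its whole length by a gene on the opposite strand. The others were Tuba1b, Rpl36al and Lgals1. Lgals1, the lectin galectin-1, had 2.52 and 2.37 CPM in 4sU RNA, against 87.3 and 126 CPM in total RNA (log2 ratio -5.44 ± 0.25, adjusted p = 1.37e-05), with no shared window and no overlapping gene. Rpl36al, a ribosomal protein gene outside the list used above, had 1.39 and 1.62 CPM in 4sU RNA, against 82.0 and 106 CPM in total RNA (log2 ratio -5.95 ± 0.23, adjusted p = 1.28e-05), but 92.4% of its span is overlapped by another gene on the same strand. Of the 10 with the highest ratios, 3 were the mitochondrial genes above. Morf4l1, a chromodomain protein of histone acetyltransferase complexes, had 332 and 333 CPM in 4sU RNA, against 33.6 and 35.9 CPM in total RNA (log2 ratio 3.25 ± 0.14, adjusted p = 1.28e-05), with 46.9% of windows shared. Hnrnpa3, an RNA-binding protein, had 213 and 239.6 CPM in 4sU RNA, against 21.8 and 30.6 CPM in total RNA (log2 ratio 3.10 ± 0.19, adjusted p = 3.10e-05), with 91.0% shared. Ppp3r1, the regulatory subunit of calcineurin, had 65.7 and 68.3 CPM in 4sU RNA, against 8.77 and 5.49 CPM in total RNA (log2 ratio 3.25 ± 0.23, adjusted p = 4.70e-05), with 44.4% of its span overlapped on the same strand. Less affected by overlap or shared sequence were Ubtd2, with 43.8 and 46.4 CPM in 4sU RNA, against 6.53 and 6.27 CPM in total RNA (log2 ratio 2.82 ± 0.18, adjusted p = 3.55e-05), Ccr4, a chemokine receptor, with 39.9 and 36.0 CPM in 4sU RNA, against 4.89 and 5.49 CPM in total RNA (log2 ratio 2.86 ± 0.20, adjusted p = 4.57e-05), and the salivary amylase gene Amy1, with 61.8 and 69.1 CPM in 4sU RNA, against 7.54 and 8.78 CPM in total RNA (log2 ratio 2.99 ± 0.18, adjusted p = 2.81e-05). These 3 had 0% to 2.69% of windows shared and span-matched ratios of 2.33, 3.65 and 2.76.

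Regulators of chromatin were more often higher than lower in 4sU RNA. Of a list of chromatin remodellers and histone methyltransferases, which also holds Polycomb subunits, demethylases and the acetyltransferases Crebbp and Ep300, 18 of 33 tested members were higher in 4sU RNA and 6 were lower, with a median log2 ratio of 0.56 and 0.06 after matching for span, so that much of the distance from 0 went with their long spans (median 67.6 kb). Jarid2, which guides Polycomb repressive complex 2, had 1895 and 1723 CPM in 4sU RNA, against 505 and 304 CPM in total RNA (log2 ratio 2.16 ± 0.25, adjusted p = 2.94e-04; 0.76 after matching for span). Crebbp, a histone acetyltransferase, had 580.5 and 647 CPM in 4sU RNA, against 184 and 127 CPM in total RNA (log2 ratio 1.98 ± 0.20, adjusted p = 1.73e-04; 0.86 after matching). The lowest ratios of the list were in Ehmt2, the H3K9 methyltransferase G9a, with 16.97 and 16.7 CPM in 4sU RNA, against 127 and 69.0 CPM in total RNA (log2 ratio -2.54 ± 0.29, adjusted p = 3.03e-04), and Chd4, the helicase of the NuRD complex, with 137 and 153 CPM in 4sU RNA, against 439 and 450.4 CPM in total RNA (log2 ratio -1.62 ± 0.13, adjusted p = 7.97e-05). Their span-matched ratios were -1.74 and -1.55.

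Regulators of splicing and the splicing machinery were split in direction. Of Clk kinases and regulators of SR proteins, 7 of 13 tested members were higher in 4sU RNA and 4 were lower, with a median log2 ratio of 0.52 and 0.86 after matching for span. Srpk2, an SR protein kinase, had 245 and 207 CPM in 4sU RNA, against 79.5 and 60.2 CPM in total RNA (log2 ratio 1.70 ± 0.18, adjusted p = 2.11e-04), and the splicing activator Tra2b had 447 and 508 CPM in 4sU RNA, against 177 and 201 CPM in total RNA (log2 ratio 1.33 ± 0.14, adjusted p = 2.34e-04; 1.82 after matching for span). The scaffold genes Son and Srrm2 were lower, with log2 ratios of -0.90 and -0.69. Of the SR proteins, 1 of 11 tested members was higher in 4sU RNA and 6 were lower, with a median log2 ratio of -0.60 and 0.71 after matching for span. Srsf2 had 127 and 143 CPM in 4sU RNA, against 477 and 594 CPM in total RNA (log2 ratio -1.99 ± 0.16, adjusted p = 7.61e-05). Srsf1 had a log2 ratio of -1.77. Srsf4 was higher with 96.5 and 103 CPM in 4sU RNA, against 56.3 and 59.9 CPM in total RNA (log2 ratio 0.78 ± 0.13, adjusted p = 0.00199), and Srsf11, at 0.29, was not called (adjusted p = 0.110). Of spliceosome core proteins, 4 of 27 tested members were higher in 4sU RNA and 15 were lower, with a median log2 ratio of -0.50 and 0.17 after matching for span. Sf3b5 had 3.72 and 3.99 CPM in 4sU RNA, against 80.5 and 99.5 CPM in total RNA (log2 ratio -4.54 ± 0.20, adjusted p = 1.28e-05). Prpf8, the protein at the centre of the spliceosome, had 109 and 127 CPM in 4sU RNA, against 735 and 805 CPM in total RNA (log2 ratio -2.71 ± 0.15, adjusted p = 2.17e-05). The Sm protein genes Snrpd3 and Snrpf were higher, with log2 ratios of 1.33 and 1.13. Whether the lists differ from each other was not tested. Srsf11 was called with the cell line as a block (adjusted p = 0.0386) or without the Tir1/BirA total RNA library (adjusted p = 0.0382). Of the Clk kinases and regulators, 4 were higher without the Tir1/BirA 4sU library. Of the SR proteins, 2 were higher with the cell line as a block, and 3 were higher without the Tir1/BirA total RNA library.

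Genes of messenger RNA decay went both ways, as did all genes tested (27.6% higher and 35.2% lower). Of decay factors, 16 of 40 tested members (40%) were higher in 4sU RNA and 16 (40%) were lower, with a median log2 ratio of -0.01 and 0.06 after matching for span. The exosome subunit Exosc4 had 8.64 and 6.97 CPM in 4sU RNA, against 57.7 and 61.3 CPM in total RNA (log2 ratio -2.93 ± 0.18, adjusted p = 3.13e-05). Edc4, a scaffold of decapping, had 24.7 and 24.6 CPM in 4sU RNA, against 121 and 123 CPM in total RNA (log2 ratio -2.31 ± 0.14, adjusted p = 2.60e-05). Smg6, the endonuclease of nonsense-mediated decay, had 403 and 419 CPM in 4sU RNA, against 127 and 109 CPM in total RNA (log2 ratio 1.81 ± 0.14, adjusted p = 6.60e-05; 0.40 after matching for span). Cnot6l, a deadenylase of the CCR4-NOT complex, had 132 and 107 CPM in 4sU RNA, against 42.0 and 31.2 CPM in total RNA (log2 ratio 1.71 ± 0.20, adjusted p = 2.99e-04). Of known targets of nonsense-mediated decay, the path that removes messenger RNAs with early stop codons, 5 of 15 tested members were higher in 4sU RNA and 4 were lower, with a median log2 ratio of 0.06 and 0.75 after matching for span. These shares, 33.3% higher and 26.7% lower, were near those of all genes tested. Upf2, an adaptor of the path and itself a target, had 257 and 262 CPM in 4sU RNA, against 81.0 and 77.8 CPM in total RNA (log2 ratio 1.71 ± 0.13, adjusted p = 5.53e-05). Atf4, the stress factor with upstream reading frames, had 94.2 and 103 CPM in 4sU RNA, against 285 and 264 CPM in total RNA (log2 ratio -1.48 ± 0.13, adjusted p = 1.08e-04). Gadd45b had 8.83 and 6.09 CPM in 4sU RNA, against 37.1 and 28.1 CPM in total RNA (log2 ratio -2.12 ± 0.26, adjusted p = 3.98e-04). After matching for span Atf4 and Gadd45b were at 1.18 and 0.53, on the other side of 0. Of the decay targets, 3 were higher without the Tir1/BirA 4sU library.

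Host transcripts of small nucleolar RNAs carry these RNAs in their introns, and their spliced forms are mostly short-lived. Of these, 3 of 15 tested members were higher in 4sU RNA and 0 were lower, with a median log2 ratio of 0.45 and 2.69 after matching for span. With the same span most coding genes had ratios far below these, so 14 of 15 were above the median of coding genes of their span. Gas5, which hosts several such RNAs and is a known target of nonsense-mediated decay, had 359 and 391 CPM in 4sU RNA, against 195 and 300.4 CPM in total RNA (log2 ratio 0.60 ± 0.21, adjusted p = 0.0410). Snhg9 had 3.41 and 3.38 CPM in 4sU RNA, against 1.84 and 1.88 CPM in total RNA (adjusted p = 0.0854) and did not pass the test, nor did Snhg10 and Snhg20 at the low end, with log2 ratios of -0.57 and -0.56. Gas5 was not called without the Tir1/BirA 4sU library (adjusted p = 0.0795) or without the plain WT total RNA library (adjusted p = 0.0716). Snhg20 was called with no filter (adjusted p = 0.0320), with the cell line as a block (adjusted p = 0.00339) or without the Tir1/BirA total RNA library (adjusted p = 0.00374). Snhg9 was called in genes with at least 50 counts (adjusted p = 0.0450). Of the host genes, 5 were higher with TMM scaling, with DESeq2 size factors or with nuclear protein-coding totals, and 6 were higher with no filter, without the Tir1/BirA total RNA library or with DESeq2, and 7 were higher with the cell line as a block, and 0 were higher without the Tir1/BirA 4sU library.

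Of nuclear long non-coding RNAs, 7 of 18 tested members were higher in 4sU RNA and 5 were lower, with a median log2 ratio of 0.42 and 0.60 after matching for span. These are 38.9% higher and 27.8% lower, against 27.6% and 35.2% of all genes tested. Xist and Jpx passed the filter on low counts only through their 4sU RNA counts. Of the 16 members with at least 10 counts in every library, 6 were higher and 5 were lower, with a median log2 ratio of 0.36. Xist, which coats the inactive X chromosome, was at or near 0 in total RNA, with 1.32 and 1.15 CPM in 4sU RNA, against 0 and 0.157 CPM in total RNA (log2 ratio 3.64 ± 0.92, adjusted p = 0.0114). All of its span is overlapped on the opposite strand by its antisense partner Tsix, which was picked after its values were seen and had 46.9 and 45.8 CPM in 4sU RNA, against 11.6 and 14.0 CPM in total RNA (log2 ratio 1.85). Jpx, an activator of Xist, had 1.26 and 1.29 CPM in 4sU RNA, against 0.612 and 0 CPM in total RNA and did not pass the test (adjusted p = 0.0765). The lowest ratios were in 2900097C17Rik, with 3.28 and 3.65 CPM in 4sU RNA, against 14.9 and 21.9 CPM in total RNA (log2 ratio -2.41 ± 0.29, adjusted p = 3.61e-04), and Tug1, with 81.5 and 77.9 CPM in 4sU RNA, against 134 and 181 CPM in total RNA (log2 ratio -0.98 ± 0.17, adjusted p = 0.00212). Of microRNA host transcripts, 2 of 4 tested were higher and 0 lower. Mir17hg, the host of the miR-17-92 cluster, had 66.4 and 97.6 CPM in 4sU RNA, against 25.5 and 40.4 CPM in total RNA (log2 ratio 1.31 ± 0.27, adjusted p = 0.00492). Dleu2, the host of miR-15a and miR-16-1, had 407 and 319 CPM in 4sU RNA, against 107 and 100.5 CPM in total RNA (log2 ratio 1.81 ± 0.16, adjusted p = 1.10e-04). Mir124a-1hg, with 2.84 and 3.99 CPM in 4sU RNA, against 2.45 and 1.88 CPM in total RNA, and Mir142hg, with 0.568 and 6.63 CPM in 4sU RNA, against 0.612 and 2.98 CPM in total RNA, did not pass the test (adjusted p = 0.193 and 0.534). The non-coding genes with the highest ratios under the rule for naming have no assigned role: Gm43176 had 18.4 and 18.4 CPM in 4sU RNA, against 2.24 and 2.67 CPM in total RNA (log2 ratio 2.89 ± 0.26, adjusted p = 1.12e-04). B830012L14Rik had 43.3 and 56.2 CPM in 4sU RNA, against 6.93 and 7.68 CPM in total RNA (log2 ratio 2.76 ± 0.21, adjusted p = 6.42e-05), and Gm15246, Gm37238 and Gm28039 had log2 ratios of 2.66, 2.64 and 2.64. All of Gm37238 and 69.7% of Gm28039 are overlapped by another gene on the same strand. Xist was not called with DESeq2 (adjusted p = 0.0684). Jpx was called with no filter (adjusted p = 0.0298), with the cell line as a block (adjusted p = 0.0123) or without the plain WT total RNA library (adjusted p = 0.0131). Mir142hg was called with the cell line as a block (adjusted p = 0.0447) or without the plain WT 4sU library (adjusted p = 0.00832). Of the nuclear long non-coding RNAs, 11 were higher with the cell line as a block, and 4 were higher without the Tir1/BirA 4sU library. Of them, 3 were lower without the plain WT 4sU library, without the Tir1/BirA 4sU library or with DESeq2.

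Genes known for unstable messenger RNAs were then examined. Many of them carry AU-rich elements in the 3′ UTR, which decay factors such as the zinc finger protein Zfp36 bind. The core of such an element, the 9-base motif TTATTTATT, was searched on the transcript strand of annotated 3′ UTRs, counting overlapping matches. It is shown in capitals with 10 bases on each side, as the first match in the annotated transcript (GENCODE M21, mm10) of 4 regulatory genes and 2 pluripotency genes, at chr12:55489608-55489636 (minus strand), chr17:26506159-26506187 (minus strand), chr12:85477103-85477131 (plus strand), chr7:28376951-28376979 (minus strand), chr6:122713630-122713658 (plus strand) and chr14:99314659-99314687 (plus strand) in the order given.
Nfkbia: ggaccacgttTTATTTATTgtgcttttga
Dusp1: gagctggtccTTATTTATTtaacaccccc
Fos: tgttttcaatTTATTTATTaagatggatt
Zfp36: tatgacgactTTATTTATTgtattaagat
Nanog: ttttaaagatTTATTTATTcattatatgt
Klf5: tgttttatcaTTATTTATTttgtggtaat

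The motif occurred in 911 of 12660 coding genes (7.20%). Genes with it had a median log2 ratio of 0.27, against -0.21 in genes without it, and 0.17 against -0.02 after matching for span. A long UTR holds any motif more often. Among genes with a 3′ UTR of 1 to 3 kb the medians were 0.23 in 394 genes with the motif and -0.02 in 4028 without it. The middle ranges of these distributions overlapped widely, with lower and upper quartiles of -0.63 and 1.07 with the motif and of -0.98 and 0.84 without it. The motif was in 7 of 23 immediate-early genes (30.4%), 5 of 22 feedback inhibitors (22.7%), 2 of 27 pluripotency factors, 1 of 75 ribosomal protein genes and 2 of 72 respiratory chain genes. A match is a description of the sequence and says nothing of binding.

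Immediate-early genes, which growth factors switch on without new protein synthesis, were mostly lower in 4sU RNA: 1 of 23 tested members was higher in 4sU RNA and 14 were lower, with a median log2 ratio of -1.13 and 0.98 after matching for span. The sign of the median thus differs between the measures, as these genes are short (median span 3.49 kb). Jund, a subunit of AP-1, had 1.83 and 1.76 CPM in 4sU RNA, against 49.6 and 34.6 CPM in total RNA (log2 ratio -4.54 ± 0.27, adjusted p = 2.62e-05). Ier5l had 4.42 and 4.67 CPM in 4sU RNA, against 33.2 and 31.7 CPM in total RNA (log2 ratio -2.83 ± 0.20, adjusted p = 4.34e-05). Zfp36l1, a decay factor of the Zfp36 family, was the only member that was higher, with 32.2 and 56.8 CPM in 4sU RNA, against 18.8 and 28.1 CPM in total RNA (log2 ratio 0.92 ± 0.31, adjusted p = 0.0378). Zfp36 had 3.91 and 4.33 CPM in 4sU RNA, against 3.26 and 1.097 CPM in total RNA without passing the test (adjusted p = 0.137). Fos, Dusp1 and Nfkbia were picked after their values were seen, because they are textbook cases of unstable messenger RNAs. Fos had 1.26 and 1.62 CPM in 4sU RNA, against 5.10 and 2.19 CPM in total RNA and was not called (adjusted p = 0.0603). Dusp1, a phosphatase of MAP kinases, had 13.6 and 17.5 CPM in 4sU RNA, against 26.5 and 24.6 CPM in total RNA (log2 ratio -0.72 ± 0.20, adjusted p = 0.0182; 1.94 after matching for span). Nfkbia, the inhibitor of NF-kappa-B, had 7.57 and 9.67 CPM in 4sU RNA, against 17.7 and 24.6 CPM in total RNA (log2 ratio -1.30 ± 0.25, adjusted p = 0.00352; 1.35 after matching). Zfp36l1 was not called without the Tir1/BirA 4sU library (adjusted p = 0.211), without the plain WT total RNA library (adjusted p = 0.275) or without the Tir1/BirA total RNA library (adjusted p = 0.103). Zfp36 was called with the cell line as a block (adjusted p = 0.0160) or without the plain WT total RNA library (adjusted p = 0.0158). Of the immediate-early genes, 9 were lower without the plain WT 4sU library or with DESeq2. Of them, 3 were higher with the cell line as a block.

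Of feedback inhibitors of signalling, 4 of 22 tested members were higher in 4sU RNA and 7 were lower, with a median log2 ratio of -0.29 and 0.68 after matching for span. The shares called were 18.2% higher and 31.8% lower, against 27.6% and 35.2% of all genes tested. The span differed widely between the inhibitors. Spred2, an inhibitor of Ras signalling that spans 99.7 kb, had 203 and 219 CPM in 4sU RNA, against 53.4 and 39.8 CPM in total RNA (log2 ratio 2.18 ± 0.17, adjusted p = 7.19e-05; 1.34 after matching for span). Smad7, the inhibitor of TGF-beta and activin signalling, had 463 and 532 CPM in 4sU RNA, against 174 and 144 CPM in total RNA (log2 ratio 1.65 ± 0.16, adjusted p = 1.40e-04; 1.88 after matching). Notum, an extracellular inhibitor of Wnt, had 10.3 and 20.6 CPM in 4sU RNA, against 39.2 and 63.3 CPM in total RNA (log2 ratio -1.74 ± 0.37, adjusted p = 0.00638). Lefty2, an inhibitor of Nodal, had 2.21 and 6.02 CPM in 4sU RNA, against 5.10 and 24.8 CPM in total RNA and was not called (adjusted p = 0.0852), with the Tir1/BirA line higher in both fractions. Of the inhibitors of differentiation and the Hes genes, 0 of 6 tested were higher and 4 lower. Hes6 had 0.883 and 0.541 CPM in 4sU RNA, against 11.01 and 13.2 CPM in total RNA (log2 ratio -4.06 ± 0.38, adjusted p = 1.27e-04). Id2 had 2.71 and 2.503 CPM in 4sU RNA, against 11.01 and 8.62 CPM in total RNA (log2 ratio -1.90 ± 0.31, adjusted p = 0.00153). Hes1, the Notch target, had 10.3 and 14.8 CPM in 4sU RNA, against 23.2 and 31.7 CPM in total RNA (log2 ratio -1.14 ± 0.26, adjusted p = 0.00696). Id1 had 0.757 and 0.338 CPM in 4sU RNA, against 2.65 and 1.25 CPM in total RNA (log2 ratio -1.76 ± 0.64, adjusted p = 0.0452). Hes6 and Id1 passed the filter on low counts only through their total RNA counts. Of the 4 Id and Hes genes with at least 10 counts in every library, 0 were higher and 2 were lower. Id3 and Id4 had log2 ratios of -0.13 and -0.77 and were not called. After matching for span, 5 of the 6 were above the median of their span. Notum was not called without the Tir1/BirA total RNA library (adjusted p = 0.0914). Lefty2 was called with no filter (adjusted p = 5.13e-09), with the cell line as a block (adjusted p = 4.83e-11), without the plain WT 4sU library (adjusted p = 0.00323) or without the plain WT total RNA library (adjusted p = 0.0217). Id1 was not called with nuclear protein-coding totals (adjusted p = 0.0545), without the plain WT 4sU library (adjusted p = 0.0821), without the Tir1/BirA 4sU library (adjusted p = 0.256), without the plain WT total RNA library (adjusted p = 0.265) or with DESeq2 (adjusted p = 0.163). Id4 was called with no filter (adjusted p = 0.00743), with the cell line as a block (adjusted p = 2.22e-04), without the Tir1/BirA 4sU library (adjusted p = 0.00677) or without the plain WT total RNA library (adjusted p = 0.0321). Of the feedback inhibitors, 4 were lower without the Tir1/BirA 4sU library or with DESeq2.

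Of the zinc finger genes named Zfp, a large group of DNA-binding proteins, 66 of 344 tested members were higher in 4sU RNA and 100 were lower, with a median log2 ratio of -0.13 and 0.52 after matching for span. The shares called were 19.2% higher and 29.1% lower, both below those of all genes tested. Zfp729b, with 86.6% of its span overlapped on the same strand, had a log2 ratio of -3.06, and Zfp692 had -2.84. The highest, Zfp618 and Zfp866, had few counts, with 2.46 and 3.25 CPM in 4sU RNA, against 0.612 and 0.157 CPM in total RNA for Zfp618 and 1.89 and 2.71 CPM in 4sU RNA, against 0.408 and 0.314 CPM in total RNA for Zfp866. Zfp618 and Zfp866 passed the filter on low counts only through their 4sU RNA counts. Of the 317 members with at least 10 counts in every library, 59 were higher and 97 were lower. Zfp866 was not called without the Tir1/BirA 4sU library (adjusted p = 0.0624).

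Pluripotency factors, which these cells depend on, ranged from -4.76 to 1.70: 3 of 27 tested members were higher in 4sU RNA and 16 were lower, with a median log2 ratio of -0.76 and 0.42 after matching for span. The lowest were the short genes Dppa5a, an RNA-binding protein of pluripotent cells, with 13.2 and 13.9 CPM in 4sU RNA, against 334 and 401 CPM in total RNA (log2 ratio -4.76 ± 0.17, adjusted p = 1.28e-05), and Dppa3, a maternal factor that protects DNA methylation, with 0.883 and 0.338 CPM in 4sU RNA, against 15.7 and 9.41 CPM in total RNA (log2 ratio -4.31 ± 0.51, adjusted p = 3.49e-04). Dppa3 passed the filter on low counts only through its total RNA counts. Pou5f1 (Oct4) had 61.8 and 55.5 CPM in 4sU RNA, against 619.9 and 663 CPM in total RNA (log2 ratio -3.45 ± 0.15, adjusted p = 1.28e-05; -1.35 after matching for span). Nanog had 241 and 255.7 CPM in 4sU RNA, against 636 and 522 CPM in total RNA (log2 ratio -1.22 ± 0.15, adjusted p = 4.05e-04; 0.49 after matching). Klf4 had 74.8 and 77.9 CPM in 4sU RNA, against 129.9 and 117 CPM in total RNA (log2 ratio -0.69 ± 0.13, adjusted p = 0.00336; 1.02 after matching). Thus Pou5f1 stayed below the median of genes of its span, while Nanog and Klf4 lay above it. Esrrb, an orphan nuclear receptor, had 761 and 827 CPM in 4sU RNA, against 720.4 and 601 CPM in total RNA (adjusted p = 0.158), and Zfp42 (Rex1) had 586 and 540.4 CPM in 4sU RNA, against 582 and 485 CPM in total RNA (adjusted p = 0.661); neither passed the test. The factors with the highest ratios were Nr5a2, another nuclear receptor, with 967 and 1040.0 CPM in 4sU RNA, against 321 and 298 CPM in total RNA (log2 ratio 1.70 ± 0.14, adjusted p = 7.30e-05), and Klf5 with 159 and 206 CPM in 4sU RNA, against 60.2 and 70.4 CPM in total RNA (log2 ratio 1.48 ± 0.18, adjusted p = 3.51e-04; 2.27 after matching). Both 4sU libraries were above both total RNA libraries in Nr5a2 and Klf5 and below them in Pou5f1 and Nanog. Esrrb was called without the plain WT total RNA library (adjusted p = 0.0365).

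In the Myc and Max network, transcription factors that bind E-boxes, 2 of 12 tested members were higher in 4sU RNA and 5 were lower, with a median log2 ratio of -0.01 and 0.35 after matching for span. The shares called were 16.7% higher and 41.7% lower, against 27.6% and 35.2% of all genes tested. Myc itself was low in both fractions, with 3.09 and 3.38 CPM in 4sU RNA, against 2.24 and 3.61 CPM in total RNA, and was not called (adjusted p = 0.794). Mlx had 5.55 and 4.80 CPM in 4sU RNA, against 58.1 and 60.7 CPM in total RNA (log2 ratio -3.52 ± 0.18, adjusted p = 1.79e-05). Mycl had 6.81 and 7.24 CPM in 4sU RNA, against 49.96 and 52.5 CPM in total RNA (log2 ratio -2.87 ± 0.17, adjusted p = 2.65e-05). Mlxip had 32.7 and 33.9 CPM in 4sU RNA, against 20.2 and 14.9 CPM in total RNA (log2 ratio 0.93 ± 0.20, adjusted p = 0.00542). Mxi1 had 75.2 and 50.6 CPM in 4sU RNA, against 40.0 and 15.1 CPM in total RNA and was not called (adjusted p = 0.0591). Mxi1 was called with TMM scaling (adjusted p = 0.0433), with DESeq2 size factors (adjusted p = 0.0367), with nuclear protein-coding totals (adjusted p = 0.0470), with no filter (adjusted p = 7.96e-09), with the cell line as a block (adjusted p = 1.97e-15), without the plain WT 4sU library (adjusted p = 0.00451), without the plain WT total RNA library (adjusted p = 0.00217) or with DESeq2 (adjusted p = 7.06e-04). Of the network, 1 was higher without the Tir1/BirA 4sU library. Of it, 3 were lower in genes with at least 50 counts.

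The SAGA and ATAC coactivator complexes, which acetylate and deubiquitinate histones and some of whose subunits are depleted in the mutants of the series, were not targeted in these WT lines. Of their subunits, 7 of 24 tested members were higher in 4sU RNA and 11 were lower, with a median log2 ratio of -0.42 and 0.03 after matching for span. These are 29.2% higher and 45.8% lower, against 27.6% and 35.2% of all genes tested. Kat2a, the acetyltransferase Gcn5, had 14.8 and 13.7 CPM in 4sU RNA, against 113 and 118 CPM in total RNA (log2 ratio -3.02 ± 0.15, adjusted p = 1.58e-05). Atxn7l3, of the deubiquitinase module, had 20.6 and 18.9 CPM in 4sU RNA, against 135 and 132 CPM in total RNA (log2 ratio -2.76 ± 0.14, adjusted p = 1.83e-05). Tada3, which both complexes share, had 31.4 and 23.6 CPM in 4sU RNA, against 94.2 and 86.4 CPM in total RNA (log2 ratio -1.71 ± 0.18, adjusted p = 2.03e-04). Supt7l, of the SAGA core, had 15.0 and 12.8 CPM in 4sU RNA, against 30.6 and 25.4 CPM in total RNA (log2 ratio -1.01 ± 0.20, adjusted p = 0.00374). The ATAC genes Zzz3 and Yeats2 were higher: Zzz3 had 364 and 413 CPM in 4sU RNA, against 196 and 218 CPM in total RNA (log2 ratio 0.91 ± 0.14, adjusted p = 0.00118). Yeats2 had 247 and 238 CPM in 4sU RNA, against 144 and 123 CPM in total RNA (log2 ratio 0.86 ± 0.14, adjusted p = 0.00140). With span-matched ratios of 0.20 and 0.03, both were near the median of genes as long as they are. Supt3 and Atxn7, of 342 and 146 kb, had the highest ratios of the list, at 1.62 and 1.46, and span-matched ratios of 0.21 and 0.05.

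**Figure D5:**
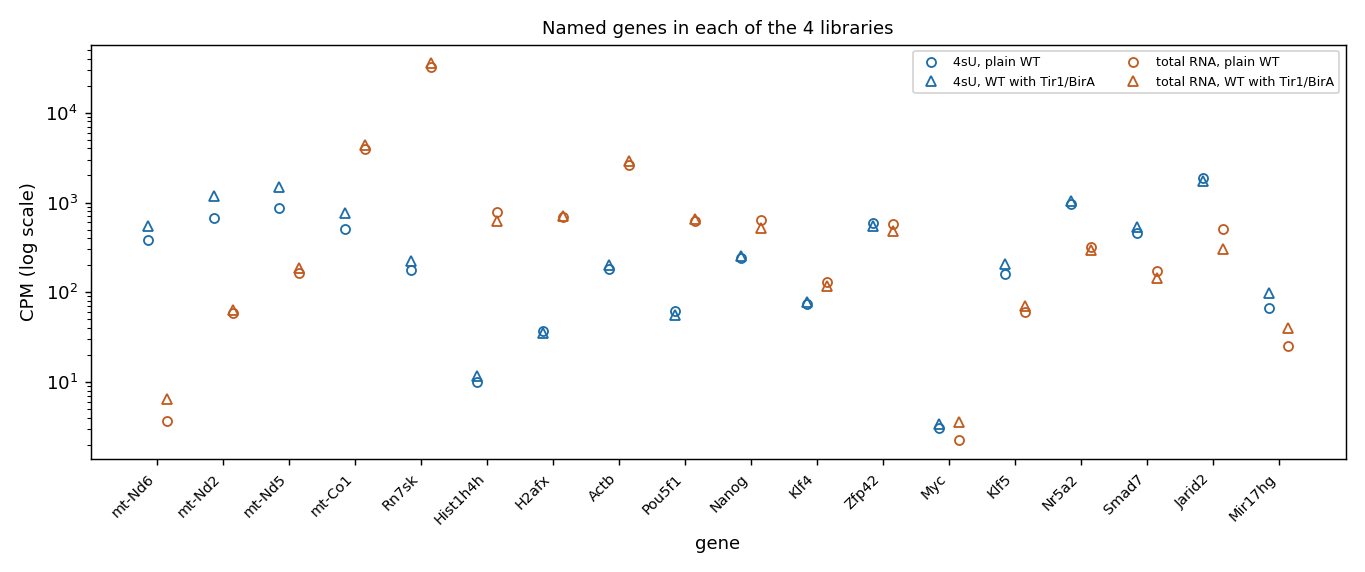
CPM of single genes in the 2 4sU RNA libraries and the 2 total RNA libraries on a log axis, 1 point per library. The 4sU points lie below the total RNA points in the genes with low ratios and above them in the genes with high ratios, with a gap wider than that between the libraries of a fraction in each gene whose difference was called.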

How the data were processed

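RNA-seq of wild type (WT) mouse embryonic stem cells compared newly made (4sU) and total RNA, with 2 libraries in each fraction. Per the labels' protocols, the libraries were made with a stranded kit, ribosomal RNA was removed from total RNA only, and Drosophila cells were spiked in. The submitters' processing notes name HTSeq 0.6.1p1, STAR 2.5.3a and Bowtie2 2.2.8, along with the mm10 build. Strand setting, multi-mapped reads and intron reads are not given in the sources used here. The authors deposited raw counts per gene, whole numbers that were used as they are. Another 42 columns of per-sample values in the deposited tables were not used. The Drosophila genes and rows that name no mouse gene were left out of totals and tests, and the spike-in took 11.0% and 12.3% of gene counts in 4sU RNA, against 39.0% and 41.2% in total RNA.

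Counts were tested with edgeR 4.0.16 (quasi-likelihood test, limma 3.58.1, R 4.3.3) with library totals of mouse gene counts as scaling, after filterByExpr with a minimum count of 10, and p-values were adjusted by the Benjamini-Hochberg method over all 14494 genes tested. A gene was called at an adjusted p under 0.05. The standard error of a log2 ratio is its size divided by the square root of the F statistic. The script was tested on simulated data. Single shares and levels carry counting error only, and reads without molecular identifiers are not independent molecules. Plain WT and WT with Tir1/BirA each gave 1 library to each fraction, so the replicates pair by cell line, per the labels. Deviations of the paired libraries from the group means had a correlation of 0.469 over 14043 genes.

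Alternatives were TMM scaling, DESeq2 size factors, totals of nuclear protein-coding genes, no filter, at least 50 counts, DESeq2 1.42.0, the cell line as a block and leaving out each library. For the tests, at least 50 counts were asked for in every library of either fraction, so a gene could pass through the fraction where it is high. The span-matched ratio (20 bins), the limit on shared windows of 50 bases and the split by introns were chosen after seeing the data. Gene features and windows came from GENCODE M21 on GRCm38, where 13806 of the 14494 genes (95.3%) had the same coordinates as in the deposited table. Named genes were the 10 highest and 10 lowest protein-coding and the 5 highest and 5 lowest non-coding genes among those called in the same direction with both scalings, with at least 10 counts in every library, a mean of at least 5 CPM and no overlap of the fractions. Also named were the 2 highest and 2 lowest members of each list, all members of lists of up to 8, and the single genes Pou5f1, Nanog, Klf4, Esrrb, Zfp42, Myc, Actb, Gapdh, Tada3, Yeats2, Supt7l and Zzz3. The lists and their members were chosen with earlier results of these data known, so a list's direction is not independent evidence. Tables and plots were made with Python 3.11.15, pandas 2.3.3, numpy 2.4.6, scipy 1.17.1 and matplotlib 3.10.9.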

Additional observations from a re-analysis of the deposited data

Results flagged for a closer look

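A few results pointed in opposite directions in plain WT and in WT with Tir1/BirA, each of which has 1 library per fraction, so the differences were not tested. The median log2 ratio of the Myc and Max network was 0.053 in plain WT and -0.12 in WT with Tir1/BirA, that of the decay factors was -0.057 in plain WT and 0.032 in WT with Tir1/BirA, and that of the targets of nonsense-mediated decay was -0.10 in plain WT and 0.18 in WT with Tir1/BirA. All of these medians lie near 0. Among single genes, Id3 had a log2 ratio of -0.64 in plain WT and 0.37 in WT with Tir1/BirA. The microRNA host Mir142hg had -0.11 in plain WT and 1.15 in WT with Tir1/BirA, and Myc had 0.46 in plain WT and -0.092 in WT with Tir1/BirA.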

How the results depend on the processing

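Leaving out single libraries gave between 3173 and 4124 higher genes and between 4284 and 4931 lower genes, and the replicate block by cell line gave 4918 higher and 5731 lower genes, all within 1.5 times of the reported counts. None of the named genes called in the report lost its call under the block, and 10 gained one. With the block, with no filter and without the plain WT 4sU library, edgeR took the spread as the same for all genes, so that p-values of single genes there can be far smaller. TMM scaling changed the call of 2 named genes, both of which gained one. The difference between the median log2 ratios of the longest and the shortest decile of span was 4.04 with at least 50 counts, and it ranged from 3.56 to 3.87 when single libraries were left out, against 3.72 in the report. With at least 50 counts, 0.437% of genes differed by more than 1 between the lines. The median of the feedback inhibitors was -0.29 in the report, but 0.16 with at least 50 counts and between -0.42 and 0.021 when single libraries were left out, turning its sign without the plain WT 4sU library. The cause was not tested. Depth limits the genes with few counts, such as Xist, Jpx and Id1, and the low total RNA depth limits genes that were higher in 4sU RNA. With 1 library per line and fraction, no value within a line has a replicate.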
